A study of Mus musculus with 36 samples.

Results

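Of the 8774 regions of the mouse genome in which Oct4 was called in embryonic stem cells, 1637 held no Sox2 peak in any of 3 Sox2 lists, and these are the regions described here. Oct4 peaks of serum cells and of cells after 24 h in 2i on chromosomes 1 to 19, X and Y were joined into 1 region wherever they shared a base, so the regions were chosen by the authors' Oct4 and Sox2 peak calls. A region was taken as without Sox2 if no base of it was covered by a Sox2 peak of serum, of 24 h in 2i or of 3 passages in 2i. The other 7137 Oct4 regions, each with at least 1 Sox2 peak, are the comparison. Over all 14 peak lists of the study used here the genome held 84988 regions with a peak.

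Oct4, the product of the gene Pou5f1, is a POU-domain transcription factor without which pluripotent cells are not maintained. It is known to bind DNA together with the HMG-box factor Sox2, on a composite site on which both proteins lie side by side, and Nanog, a homeodomain factor, is often found at the same enhancers. H3K4me3, trimethylation of lysine 4 of histone H3, is known chiefly from the promoters of active genes and from CpG islands. The medium 2i inhibits the kinases MEK and GSK3 and keeps the cells closer to a uniform naive state than serum does.

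The study asked how factor binding changed as cells passed from serum to the ground state. All lists came from KH2 cells, an established line of mouse embryonic stem cells, except 1 Nanog list from a DNMT triple knockout line, labelled TKO, after 24 h of 2i. The cells were kept with LIF, with feeder cells in regular culture, in serum, in 2i for 24 h or in 2i for 3 passages. Chromatin was fixed with formaldehyde and precipitated with an antibody to the factor or mark. Oct4 was mapped after 24 h of 2i and in serum. Sox2 and H3K4me3 were mapped in all 3 media. Nanog was mapped with 2 lots of 1 antibody: lot 1 in serum, at 24 h and at 3 passages, and lot 2 in GFP-high serum cells, in KH2 cells at 24 h and in TKO cells at 24 h. The labels do not say what the GFP reports, and how many clones stand behind the TKO line is not stated there. They mark the 24 h condition of the KH2 Nanog samples differently for each lot without giving a meaning, so the 24 h lists of both lots need not be of 1 condition.

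Every condition is represented by a single list, called by the authors on what the peak names describe as pooled replicates. For 6 of the 14 lists the labels hold 1 sample, and what was pooled there is unknown. These are both Oct4 lists, Sox2 at 3 passages, and Nanog in GFP-high and in TKO cells. The KH2 Nanog list at 24 h made with the antibody lot of GFP-high and TKO cells is also among them. Comparisons with these lists rest on 1 labelled sample per list. No difference between media could therefore be set against the spread between cultures, and no test between conditions was made. Shares carry exact binomial 95% intervals, which cover counting error over regions only, and regions of 1 list are not replicates. Peaks were called on cell populations, so binding in fewer cells and weaker binding in each cell cannot be told apart. Read depth per list is unknown. The Oct4 lists held 7820 peaks at 24 h and 5011 in serum, with a lowest −log10 q of 85.9 and 86.4. The Sox2 lists reached far lower, to a −log10 q of 17.3 in serum, 3.69 at 24 h and 7.52 at 3 passages, so that a lack of Sox2 here means a lack at these thresholds.

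Sox2 was the criterion, and how close to it the regions lay is given first. The median distance of the 1637 regions to the nearest Sox2 peak was 28350 bp, with an interquartile range of 8680 to 71410 bp. Only 11 regions lay within 200 bp of a Sox2 peak, 82 (5.01%) within 1000 bp and 265 (16.2%) within 5000 bp. Most were thus far from any called Sox2 peak, not at its edge. The 3 regions just outside a Sox2 peak were on chromosome 11 from 93904828 to 93906323 (mm9), 77 bp from a peak of the 24 h list, on chromosome 5 from 46396535 to 46397376, 79 bp from a serum peak, and on chromosome 3 from 21974218 to 21975635, 105 bp from a peak of 3 passages. On the other side of the line, 4 of the 7137 regions with Sox2 overlapped it by 50 bp or less. The smallest overlap was 13 bp on chromosome 6 from 38308395 to 38309343, followed by 32 bp on chromosome 2 from 84582029 to 84584888 and 35 bp on chromosome 9 from 21741692 to 21742154.

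The longest and least strict Sox2 list had the most say in who belonged. Sox2 of 24 h alone covered 1132 Oct4 regions that neither other Sox2 list covered, with a median Sox2 fold enrichment of 5.40, against a median of 7.98 for the 24 h peaks of all Oct4 regions. Serum Sox2 alone covered 405 and Sox2 of 3 passages alone covered 70. Without the 24 h list the regions without Sox2 would number 2769.

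Regions without Sox2 were rarely called for Oct4 in both media. Oct4 was called only at 24 h in 1025 regions (62.6%, interval 60.2 to 65.0), only in serum in 340 (20.8%, interval 18.8 to 22.8) and in both in 272 (16.6%, interval 14.8 to 18.5). Among the 7137 regions with Sox2 the same shares were 38.6%, 8.91% and 52.5%, and among all 8774 Oct4 regions 43.1%, 11.1% and 45.8%. Membership rests on the Oct4 and Sox2 calls, so these shares are a description of the set. Without Sox2, the median Oct4 −log10 q was 110.3 for regions called only at 24 h and 102.1 for those only in serum. The lists end at 85.9 and 86.4, so a medium without an Oct4 call is one without a peak at these thresholds.

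The share called in both media climbed with the number of Sox2 lists. It was 16.6% with 0 lists, 23.5% of 1607 regions with 1, 40.2% of 1632 with 2 and 69.6% of 3898 with all 3. The share called only in serum went the opposite way, with 20.8%, 15.7%, 11.1% and 5.18%, and so did the share called only at 24 h, with 62.6%, 60.7%, 48.7% and 25.2%. Regions without any Sox2 were next to those with 1 Sox2 list in all 3 shares, and both stood well apart from regions with 3.

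**Figure D1:**
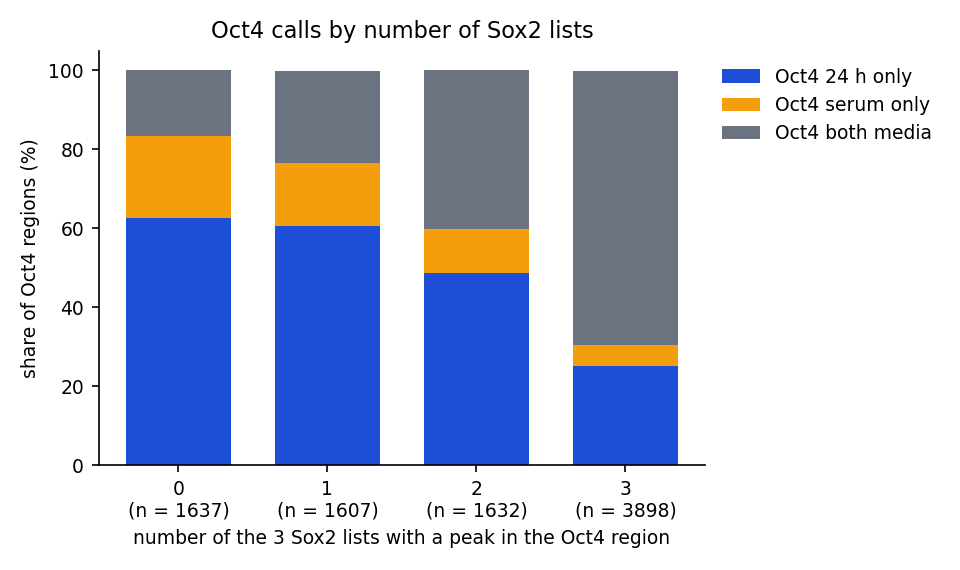
Share of Oct4 regions (%, y axis) called only at 24 h of 2i, only in serum or in both media, by the number of Sox2 lists with a peak in the region (x axis, with the number of regions). Calls in both media made up 16.6% of regions with no Sox2 list and 69.6% of regions with all 3.

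Which medium the single-medium regions belonged to depended on how many Oct4 peaks were kept. The 24 h list was the longer one. With both Oct4 lists cut to the 5011 peaks of largest −log10 q, 864 regions without Sox2 were left. Of these, 28.9% were called only at 24 h, 54.1% only in serum and 17.0% in both, against 24.1%, 20.3% and 55.5% of 5776 regions with Sox2. The small share called in both media was thus nearly the same at either length, while the larger of the single-medium classes changed from 24 h to serum. Read against the lists as deposited, 1297 of 7798 Oct4 regions of the 24 h list (16.6%, interval 15.8 to 17.5) and 612 of 4994 of the serum list (12.3%, interval 11.4 to 13.2) had no Sox2 in any medium. Judged by Sox2 of the same medium alone, the shares were 21.1% at 24 h and 23.0% in serum.

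Oct4 fold enrichment was lower where no Sox2 was called. Fold enrichment is the authors' ratio of ChIP signal over control, compared here only between peaks of 1 list, with the highest peak standing for a region. In the 24 h list the median was 16.6 over 1297 regions without Sox2 (interval of the median 16.2 to 16.9) and 21.4 over 6501 regions with Sox2 (21.1 to 21.7). In the serum list it was 16.0 over 612 regions without Sox2 (15.5 to 16.8) and 18.95 over 4382 with it (18.7 to 19.3). The intervals did not overlap in either list. Put as the median percentile of fold within the list, regions without Sox2 stood at 31.8 and those with Sox2 at 55.2 at 24 h, and at 36.4 and 52.3 in serum.

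The sets also differed in their mix of media: 272 of the 1297 regions without Sox2 in the 24 h list were called in both, against 3746 of the 6501 with Sox2. In that class the median fold in the 24 h list was 18.2 without Sox2 and 26.4 with Sox2, and in the serum list 17.1 and 19.96. Regions called in a single medium differed less than this: 16.3 against 17.7 for those only at 24 h, and 15.3 against 15.5 for those only in serum. By number of Sox2 lists, from 0 to 3, the median was 16.6, 18.4, 19.6 and 24.6 in the 24 h list, and 16.0, 16.2, 16.9 and 20.5 in the serum list.

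The strongest Oct4 peaks were seldom without Sox2. Of the top 500 regions of the 24 h list by fold, 6 had no Sox2 (1.20%, interval 0.442 to 2.59), against 258 of the 995 at the bottom (25.9%). In the serum list 14 of the top 500 had none (2.80%, interval 1.54 to 4.65), against 169 of the bottom 998 (16.9%). None of the top 100 at 24 h and 4 of the top 100 in serum lacked Sox2. Regions without Sox2 were also narrower, with a median width of 757 bp against 996 bp with Sox2. Within the class called in both media the widths were 981 and 1168.5 bp.

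A few regions without Sox2 were nonetheless among the strongest Oct4 peaks. In both media the region without Sox2 of best mean rank lay on chromosome 1 from 137240433 to 137241415, with an Oct4 fold of 74.6 at 24 h and 121.6 in serum, where it was the fourth strongest Oct4 region of all. It held no Nanog peak in 6 lists and no H3K4me3 peak in 3, its nearest Sox2 peak was 125723 bp away and its nearest Nanog peak 3571 bp away. It was an Oct4 peak with no other feature analysed here called in it. The next, on chromosome 12 from 3235633 to 3239346, had folds of 77.9 at 24 h and 84.0 in serum. It spanned 3714 bp with 2 peaks of each Oct4 list, and held Nanog in 5 lists and H3K4me3 in all 3. Whether it lies in a repeat was not checked. On chromosome 5 from 27121823 to 27122723 the folds were 64.8 and 78.9, with Nanog of lot 2 at 24 h and in TKO cells, at folds of 6.69 and 7.62, and no H3K4me3. On chromosome 10, the region from 57820319 to 57822265 had folds of 71.3 and 51.2 without any Nanog, and the region from 128214483 to 128215171 had 47.9 and 83.7 with Nanog in serum, at 24 h, at 3 passages and in GFP-high cells. The 5 strongest thus ranged from no Nanog list to 5 of 6.

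Among regions called in a single medium the top folds were lower. The 5 strongest only at 24 h had folds of 37.95 to 40.3. The first, on chromosome 7 from 146722642 to 146723206 with 40.3, held no Nanog, and the second, on chromosome 3 from 140387343 to 140388373 with 40.0, held only a GFP-high Nanog peak. On chromosome 16 from 63745876 to 63746546 the Oct4 fold of 39.0 came with Nanog of lot 2 in GFP-high serum cells and at 24 h. The remaining pair carried Nanog in 2i but not in serum: on chromosome 14 from 86548657 to 86549240 the Oct4 fold was 39.0 and Nanog was called at 24 h with both lots, at 3 passages and in TKO cells, with folds of 8.11 for lot 1 and 38.6 for lot 2 at 24 h. On chromosome 3 from 71063263 to 71063986 the Oct4 fold was 37.95 and the same 4 Nanog lists had a peak, with a fold of 25.1 for lot 1 at 24 h.

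The 5 strongest only in serum had folds of 30.8 to 34.4. The first, on chromosome 3 from 82719430 to 82720523, held Nanog in all 5 KH2 lists, with folds from 8.37 at 3 passages to 27.3 in serum, and none in TKO cells. The second, on chromosome 15 from 51438265 to 51438847 with an Oct4 fold of 33.4, held no Nanog. On chromosome 8 from 101223367 to 101224057 a fold of 31.6 came with a GFP-high Nanog peak alone. On chromosome 13 from 25724290 to 25725440 a fold of 30.8 came with Nanog in serum, at 24 h with lot 1 and in GFP-high cells. The other, on chromosome 18 with a fold of 30.9, held a serum H3K4me3 peak and no Nanog.

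Nanog was less frequent in regions without Sox2, and it was not used to choose them. A Nanog peak of at least 1 of 6 lists lay in 1167 of the 1637 (71.3%, interval 69.0 to 73.5), against 6838 of 7137 with Sox2 (95.8%, interval 95.3 to 96.3) and 91.2% of all Oct4 regions. The difference was -24.5 percentage points, with a counting interval of -26.8 to -22.3. All 6 lists had a peak in 210 regions without Sox2 (12.8%, interval 11.3 to 14.6) and in 4586 with Sox2 (64.3%), with 54.7% of all Oct4 regions. At the other end, 470 regions without Sox2 (28.7%) and 299 with it (4.19%) had no Nanog peak in any list. Regions without Sox2 spread over every number of Nanog lists, with 209, 167, 150, 192 and 239 regions at 1 to 5 lists, while those with Sox2 piled up at 6.

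The gap was present in each Nanog list. With lot 1, Nanog was called in 37.9% of regions without Sox2 in serum, 58.2% at 24 h and 48.3% at 3 passages, and in 87.1%, 92.7% and 89.5% of regions with Sox2. Over all Oct4 regions these lists covered 77.9%, 86.3% and 81.8%. With lot 2, the shares without Sox2 were 39.0% in GFP-high serum cells, 37.2% at 24 h and 37.0% in TKO cells, against 86.6%, 79.2% and 74.9% with Sox2 and 77.7%, 71.4% and 67.8% over all. As deposited, the sets came closest with lot 1 at 24 h, the longest list.

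**Figure D2:**
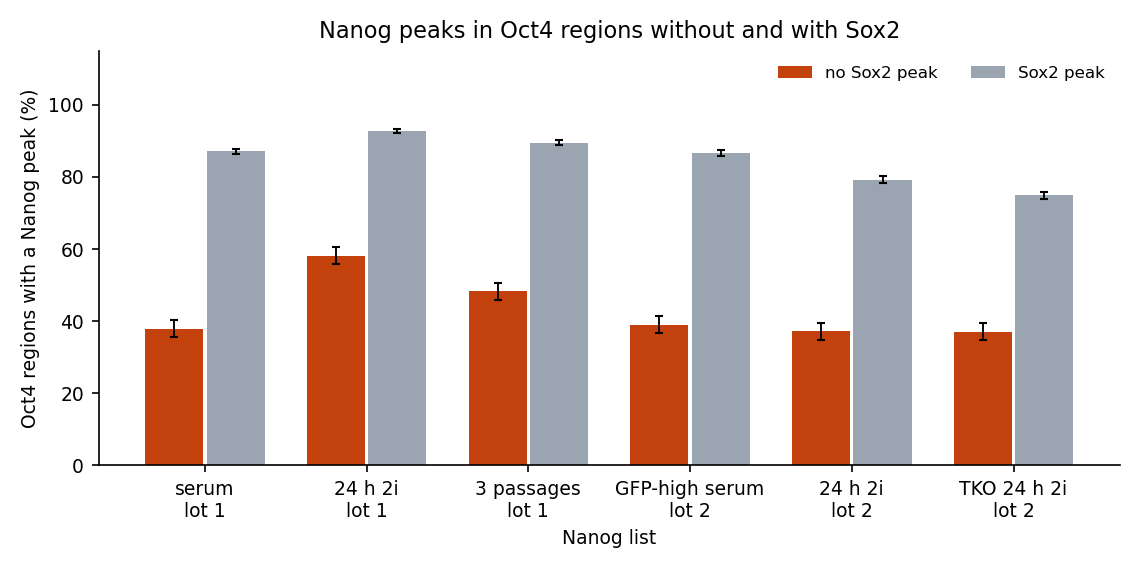
Share of Oct4 regions (%, y axis) with a peak in each of 6 Nanog lists (x axis), for 1637 regions without Sox2 and 7137 with Sox2. Bars are shares and whiskers exact 95% binomial intervals over regions; regions without Sox2 sit between 37.0% and 58.2%, those with Sox2 between 74.9% and 92.7%.

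The Nanog lists differ in length, from 21893 to 41755 peaks. Cut to 21893 peaks each by −log10 q, they covered 31.8%, 34.2% and 33.1% of regions without Sox2 for lot 1 in serum, at 24 h and at 3 passages, and 32.8%, 37.2% and 27% for lot 2 in GFP-high, 24 h and TKO cells. With Sox2 the shares were 84.5%, 84.5%, 83.4%, 83.8%, 79.2% and 67.0%. The gap to regions with Sox2 remained, but was now smallest in TKO cells, and the higher share of the 24 h list of lot 1 was largely gone.

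Sox2 and Nanog went together in steps. With 0, 1, 2 and 3 Sox2 lists, any Nanog was called in 71.3%, 91.1%, 94.7% and 98.2% of Oct4 regions, and all 6 Nanog lists in 12.8%, 35.7%, 53.9% and 80.4%. For any Nanog the largest step was the one between no Sox2 list and 1.

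Where Nanog was called in regions without Sox2, its peaks were of middling strength for their list. In serum the median Nanog fold was 10.3 without Sox2 and 21.7 with it, in a list whose median was 12.1. With lot 1 at 24 h it was 11.3 and 25.5 (list median 10.8), and at 3 passages 8.43 and 18.0 (8.90). With lot 2 it was 9.95 and 21.0 in GFP-high cells (11.4), 10.1 and 17.8 at 24 h (11.1), and 12.5 and 21.6 in TKO cells (10.8). In all 6 lists the Nanog peaks beside Sox2 were thus the stronger ones.

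The Nanog summit lay close to the Oct4 summit in both sets. In the 24 h lists, with lot 1, the median distance was 52.5 bp without Sox2 and 42 bp with it, and 638 of 830 regions (76.9%) and 84.3% had both summits within 100 bp. In serum the medians were 60 and 42 bp, and 177 of 257 (68.9%) and 82.8% were within 100 bp.

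In regions without Sox2 the share with Nanog differed with the medium in which Oct4 was called. Any Nanog peak was found in 791 of the 1025 regions with Oct4 only at 24 h (77.2%, interval 74.5 to 79.7), in 192 of the 340 only in serum (56.5%, interval 51.0 to 61.8) and in 184 of the 272 in both (67.6%, interval 61.7 to 73.2). With Sox2 the 3 classes were closer together, at 95.4%, 94.5% and 96.3%. At equal length of the Oct4 lists the shares without Sox2 were 82.0% of 250, 59.5% of 467 and 68.0% of 147.

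By list, the regions with Oct4 only at 24 h had Nanog of lot 1 in 35.5% in serum, 67.2% at 24 h and 56.2% at 3 passages. Regions with Oct4 only in serum had it in 39.1%, 35.9% and 30.3%. Those with Oct4 in both media had it in 45.6%, 51.8% and 40.8%. The 24 h share was higher where Oct4 was called only at 24 h than where it was called only in serum, with intervals that did not overlap. The serum shares of these 2 classes had overlapping intervals (32.6 to 38.5 and 33.9 to 44.5). Where Oct4 was called in both media the serum share (39.6 to 51.7) lay above that of regions with Oct4 only at 24 h. With Sox2 the corresponding shares were 80.3%, 93.1% and 88.9% for 24 h, 90.3%, 84.1% and 78.1% for serum and 91.6%, 93.9% and 91.8% for both. With Nanog lists of equal length, Nanog at 24 h and in serum covered 42.2% and 29.9% of the regions without Sox2 called only at 24 h, and 84.6% and 76.6% of those with Sox2. For Oct4 only in serum it covered 15.6% and 32.1% without Sox2, and 69.3% and 86.8% with it. Over all Oct4 regions the shares were 73.1% and 63.9% for 24 h, and 50.6% and 67.7% for serum. For Oct4 in both media it covered 27.2% and 38.6% at equal length without Sox2, and 87.0% and 89.9% with it. In that class the order of the lists as deposited was thus reversed. The order of the 24 h and serum lists was the same with and without Sox2 in each class. That of 3 passages was not: for Oct4 in both media, as deposited, it stood below serum without Sox2 (40.8% and 45.6%) and beside it with Sox2 (91.8% and 91.6%).

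**Figure D3:**
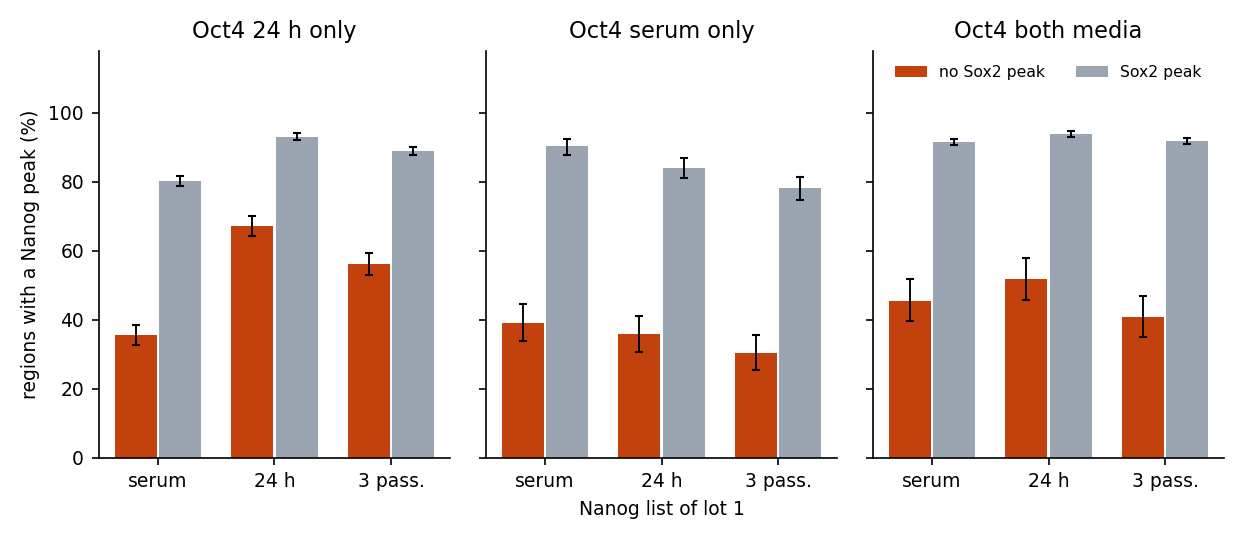
Share of Oct4 regions (%, y axis) with a Nanog peak of lot 1 in serum, at 24 h or at 3 passages of 2i (x axis), in panels by where Oct4 was called, for regions without and with Sox2. Whiskers are exact 95% binomial intervals over regions; without Sox2, Nanog at 24 h covered 67.2% of regions with Oct4 only at 24 h and 35.9% of those with Oct4 only in serum.

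Counted region by region with lot 1, Nanog was called at 24 h and not in serum in 407 regions without Sox2 (24.9%) and 521 with it (7.30%). It was called in serum and not at 24 h in 76 (4.64%) and 119 (1.67%), in both in 545 (33.3%) and 6097 (85.4%), and in neither in 609 (37.2%) and 5.61%. Over all Oct4 regions these shares were, in the same order, 10.6%, 2.22%, 75.7% and 11.5%. The 24 h list was the longer one, with 41755 peaks against 25534 in serum. Within the 1025 regions with Oct4 only at 24 h and no Sox2, 345 (33.7%) had Nanog at 24 h alone and 20 (1.95%) had it in serum alone. Among the 340 with Oct4 only in serum the numbers were 28 (8.24%) and 39 (11.5%). Over all Oct4 regions the shares were 18.9% and 0.979% with Oct4 only at 24 h, and 4.61% and 9.73% with Oct4 only in serum. With Sox2 the counts were 370 and 17 for Oct4 only at 24 h, and 17 and 56 for Oct4 only in serum. With lot 1, a call of Nanog in the same medium alone thus outnumbered the opposite one in both sets.

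With lot 2, 24 h is set against GFP-high serum cells, whose list was the longer one. Nanog was called at 24 h but not in GFP-high cells in 175 regions without Sox2 (10.7%) and 205 with it (2.87%), and in 4.33% of all Oct4 regions. It was called in GFP-high cells but not at 24 h in 204 (12.5%) and 731 (10.2%), and in 10.7% of all. In the regions without Sox2 with Oct4 only at 24 h the numbers were 137 (13.4%) and 129 (12.6%). In those with Oct4 only in serum they were 16 (4.71%) and 41 (12.1%). Over all Oct4 regions the shares were 7.20% and 10.6% with Oct4 only at 24 h, and 2.87% and 18.9% with Oct4 only in serum. With Sox2 the counts were 135 and 273 for Oct4 only at 24 h, and 12 and 143 for Oct4 only in serum. In regions with Sox2 and Oct4 only at 24 h, the order was thus opposite to that of lot 1.

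At equal length of the Nanog lists, lot 2 at 24 h and in GFP-high cells covered 37.2% and 32.8% of the regions without Sox2, and for those with Oct4 only at 24 h the shares were 43.5% (interval 40.5 to 46.6) and 35.02% (interval 32.1 to 38.03). With Oct4 only in serum they were 22.4% and 25.9%. With Sox2 the 24 h and GFP-high shares were 79.2% and 83.8% over all classes, and 78.3% and 79.1% with Oct4 only at 24 h. Over all regions without Sox2 the intervals of 24 h and serum overlapped with either lot, and among those with Oct4 only at 24 h they did not. Among those with Oct4 only in serum they overlapped with lot 2. With lot 1 they did not, and serum was higher (27.1 to 37.3 against 11.9 to 19.9). Both shares are counted on the same regions, so overlap of these intervals does not measure the difference between lists. Antibody lot and cells still differ together between the lots and cannot be told apart. In TKO cells, where no KH2 list had a peak, Nanog was called in 37 regions without Sox2 (2.26%) and 32 with it (0.448%). Over all Oct4 regions the share was 0.786%. The TKO list held 38518 peaks, against 21893 in the KH2 list of lot 2 at 24 h.

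With the lists as deposited, H3K4me3 was found as often without Sox2 as with it when any of its 3 lists counted. It lay in 222 of the 1637 regions without Sox2 (13.6%, interval 11.9 to 15.3), in 970 of the 7137 with Sox2 (13.6%, interval 12.8 to 14.4) and in 13.6% of all Oct4 regions. The difference was -0.0298 percentage points, with a counting interval of -1.80 to 1.88. Regions with Sox2 were not alike: any H3K4me3 was called in 10.3% with 1 Sox2 list, 11.3% with 2 and 15.9% with all 3. The share without Sox2 lay above that with 1 list. It lay below that with all 3, with overlapping intervals (11.9 to 15.3 and 14.8 to 17.1). By list, the share was 11.3% without and 9.30% with Sox2 in serum (9.68% of all Oct4 regions), 10.6% and 7.89% at 24 h (8.39%), and 12.3% and 11.3% at 3 passages (11.5%). Most Oct4 regions of either kind held no H3K4me3. For regions with none, the nearest H3K4me3 peak was a median of 43242 bp away without Sox2 and 43431 bp with it.

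H3K4me3 in all 3 media was more frequent without Sox2, but this rested on the Sox2 list of 24 h. It was called in 158 regions without Sox2 (9.65%, interval 8.26 to 11.2) and 449 with Sox2 (6.29%, interval 5.74 to 6.88), with 6.92% over all. When Sox2 of serum and 3 passages alone set the groups, the shares were 6.86% of 2769 and 6.94% of 6005, and any H3K4me3 was called in 10.7% and 14.9%. No difference in how often H3K4me3 occurred therefore held over the choices of Sox2 peaks.

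The mark was stronger without Sox2, and remained so when the Sox2 list of 24 h was left out. In serum the H3K4me3 peaks of regions without Sox2 had a median fold of 18.8, and those with Sox2 11.1, in a list with a median of 12.6. At 24 h the medians were 13.1 and 7.31 (list 8.16), and at 3 passages 15.9 and 7.499 (list 10). As median percentiles of fold within the list, peaks without Sox2 stood at 71.9 in serum, 76.3 at 24 h and 73.1 at 3 passages, and peaks with Sox2 at 44.3, 44.2 and 35.5. Without the 24 h Sox2 list these were 70.1, 73.0 and 69.1 against 43.9, 43.0 and 35.8. The peaks were also broader, at 2373 and 1840.5 bp in serum, 1842 and 1165 bp at 24 h, and 1989.5 and 1148 bp at 3 passages. With the lists as deposited, H3K4me3 that met Oct4 without Sox2 was thus stronger and broader than H3K4me3 that met Oct4 with Sox2. Strength was not read for further choices of Sox2 peaks. Breadth was read with the lists as deposited only.

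Oct4 in 1 medium did not go evenly with H3K4me3. Any H3K4me3 lay in 91 of the 1025 regions without Sox2 with Oct4 only at 24 h (8.88%), in 73 of the 340 only in serum (21.5%, interval 17.2 to 26.2) and in 58 of the 272 in both (21.3%, interval 16.6 to 26.7). With Sox2 the shares ran in the same order or close to it, at 8.93%, 17.3% and 16.4%. At equal length of the Oct4 lists, 6.00% of 250, 21.0% of 467 and 22.4% of 147 regions without Sox2 carried the mark. Oct4 regions called only at 24 h were therefore the class with least H3K4me3, with and without Sox2.

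**Figure D4:**
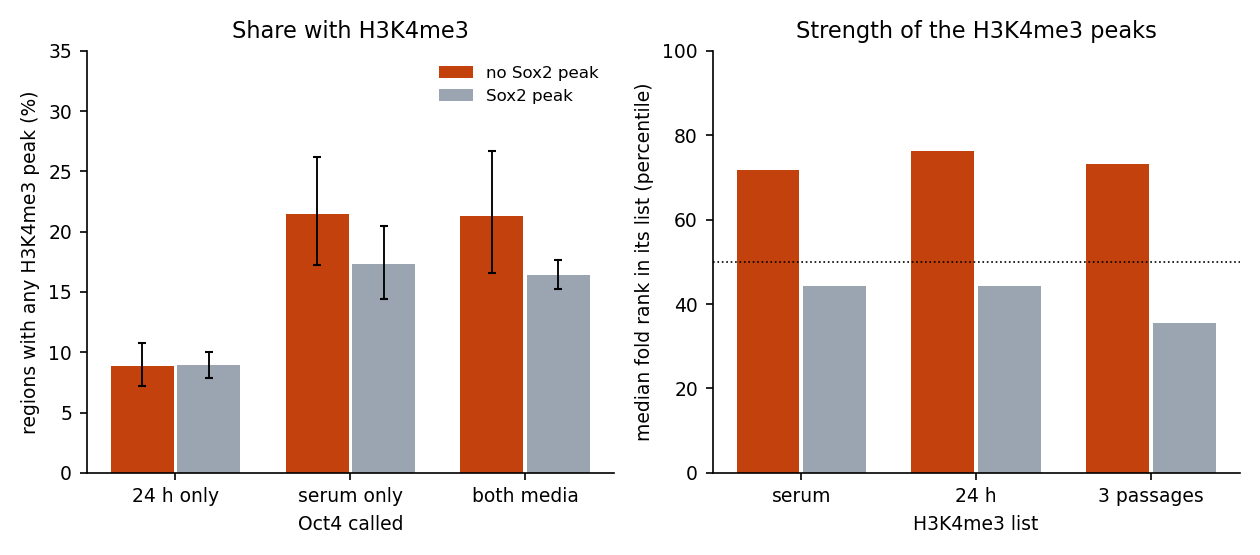
Left, share of Oct4 regions (%, y axis) with any H3K4me3 peak by where Oct4 was called, with exact 95% binomial intervals. Right, median percentile of fold of their H3K4me3 peaks within each H3K4me3 list, with a dotted line at the middle of a list; regions without Sox2 stand at 71.9 to 76.3 and those with Sox2 at 35.5 to 44.3.

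Oct4 fold and H3K4me3 were related within the set. Each Oct4 list was split into 4 bins of equal size by fold over all its regions. In the 24 h list any H3K4me3 was called in 19.4% of the 511 regions without Sox2 in the lowest bin, then in 6.96% of 474, 6.02% of 249 and 3.18% of 63. In the serum list it was called in 39.2% of 217, 15.3% of 189, 8.39% of 143 and 7.94% of 63. With Sox2 the shares were 16.2%, 11.4%, 12.8% and 12.8% at 24 h and 21.5%, 14.8%, 15.5% and 14.7% in serum. Without Sox2, H3K4me3 was mostly a property of weak Oct4 peaks, while with Sox2 it changed little above the lowest bin.

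Nanog behaved differently. In the 24 h list any Nanog was called in 77.3%, 73.6%, 74.3% and 73.0% of regions without Sox2, lowest bin to highest, and in 95.8%, 94.3%, 95.6% and 97.6% with Sox2. In the serum list the shares were 63.6%, 63.0%, 58.7% and 55.6% without Sox2, and 95.9%, 94.5%, 95.8% and 97.8% with it. The lower share of Nanog without Sox2 was thus present at every level of Oct4 fold, and was not confined to weak Oct4 peaks.

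**Figure D5:**
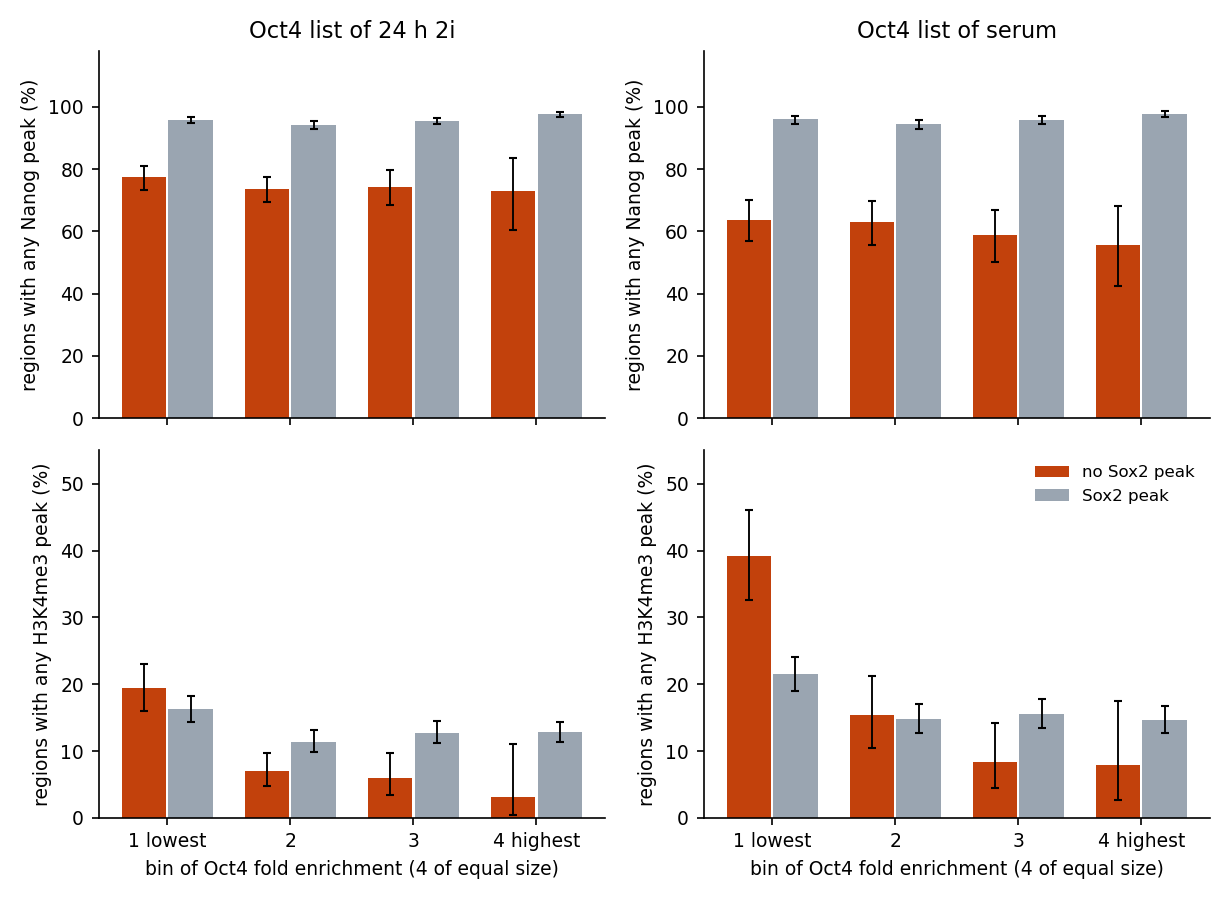
Share of Oct4 regions (%, y axis) with any Nanog peak (top) and any H3K4me3 peak (bottom) by bin of Oct4 fold enrichment, 4 of equal size in the 24 h list (left) and the serum list (right), without and with Sox2, with exact 95% binomial intervals. Nanog without Sox2 stays between 55.6% and 77.3% in all bins, and H3K4me3 without Sox2 is highest in the lowest bin, at 19.4% and 39.2%.

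Region width moved with the groups and with both readouts, so the shares were also read in 3 bins of width of equal size over all Oct4 regions. In the narrowest bin, up to 796 bp, any Nanog was called in 66.7% of 904 regions without Sox2 and 93.0% of 2016 with it. In the middle bin, up to 1136 bp, it was 76.7% of 481 and 95.2% of 2447, and in the widest 77.4% of 252 and 98.5% of 2674. Any H3K4me3 was called in 7.63% and 5.26%, 14.8% and 10.3%, and 32.5% and 22.9%. At like width, Nanog was again less frequent without Sox2. With the Sox2 lists as deposited, H3K4me3 was more frequent in each bin, although the shares over all widths were equal. In the narrowest bin the H3K4me3 intervals overlapped (5.99 to 9.56 and 4.33 to 6.32). The bins were not read without the Sox2 list of 24 h, where any H3K4me3 was called in 10.7% without Sox2 and 14.9% with it.

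Nanog and H3K4me3 together divided the 1637 regions into 4 classes. Nanog without H3K4me3 was the largest, with 1032 regions (63.0%), against 5899 (82.7%) with Sox2 and 79.0% of all Oct4 regions. Of these 1032, 70.8% had Oct4 only at 24 h, and their median Oct4 fold was 16.8 in the 24 h list and 16.8 in the serum list. Regions with Sox2 in the same class had medians of 21.6 and 19.2.

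Regions with neither Nanog nor H3K4me3 numbered 383 (23.4%, interval 21.4 to 25.5) without Sox2 and 268 (3.76%) with it, and made up 7.42% of all Oct4 regions. Of the 4 features analysed here, only Oct4 was called there. Their Oct4 peaks were not weak for the set, with a median fold of 17.1 at 24 h and 18.0 in serum, against 19.98 and 18.0 with Sox2. Of the 383, 53.0% had Oct4 only at 24 h, 29.2% only in serum and 17.8% in both. Beside the chromosome 1 region above, the strongest without Nanog lay on chromosome 10, also given above, and on chromosome 3 from 137800381 to 137802181, with Oct4 folds of 45.7 at 24 h and 57.1 in serum, 806 bp from a Sox2 peak and 740 bp from a Nanog peak.

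H3K4me3 without Nanog was found in 87 regions without Sox2 (5.32%, interval 4.28 to 6.51) and 31 with it (0.434%), and in 1.345% of all Oct4 regions. Oct4 was called only in serum in 41.4% of the 87 and only at 24 h in 35.6%, and the median Oct4 fold was 12.8 at 24 h and 12.5 in serum. These were the weakest Oct4 peaks of the set together with the 135 regions (8.25%) that held both Nanog and H3K4me3, with medians of 12.9 and 12.8. With Sox2, 939 regions (13.2%) held both, at medians of 21.0 and 18.0. Over all Oct4 regions 12.2% held both.

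Of the regions with H3K4me3 in all 3 media, the one of best Oct4 rank in either list was the chromosome 12 region above. By best rank, reached in serum in both cases, the next lay on chromosome 2 from 76513620 to 76514636, with Oct4 folds of 10.5 at 24 h and 28.3 in serum, H3K4me3 folds of 16.6 in serum, 11.3 at 24 h and 16.8 at 3 passages, and a single Nanog peak, in TKO cells, of 5.40. Then came chromosome 3 from 19088297 to 19089960, with Oct4 folds of 32.8 at 24 h and 24.1 in serum, H3K4me3 folds of 19.1, 10.9 and 13.9, and Nanog of lot 2 in all 3 of its lists, at 5.31 in GFP-high cells, 7.51 at 24 h and 13.6 in TKO cells. None of the 3 carried the full set of 6 Nanog lists.

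The regions were found on every chromosome that held Oct4. The share of Oct4 regions without Sox2 was lowest on chromosome 19 (30 of 221, 13.6%, interval 9.35 to 18.8) and highest on chromosome 1 (159 of 704, 22.6%, interval 19.6 to 25.9), with 17.2% of 308 on X, and no Oct4 region lay on Y. To the nearest other Oct4 region with Sox2 the median distance was 94786 bp from regions without Sox2 and 83708 bp from those with it, and 7.64% and 7.79% had one within 5000 bp. Close neighbours of that kind were about as frequent in both sets.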

How the data were processed

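ChIP-seq peak lists of mouse embryonic stem cells were used as deposited, 14 lists from 22 of the 36 samples in the labels. Not analysed here were 3 H3K27me3 samples, 1 whole-cell extract and 10 samples of RNA. MACS2, BWA 0.5.7, Bowtie 0.12.7 and the build mm9 are named in the submitters' processing notes. No role is given there for either aligner. Per peak, the authors deposited a fold enrichment (ratio over control), a q-value as −log10 q and a summit offset. Between 0 and 45 peaks per list lay off chromosomes 1 to 19, X and Y and were left out. No other filter was applied, so any peaks in repeats or other artefact-prone stretches were kept. Sox2 libraries are labelled as RNA, and their lists were treated as ChIP-seq peaks.

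Overlap by at least 1 bp, merging, distances and shares were computed in Python 3.11.15 with numpy 2.4.6, pandas 2.3.3 and scipy 1.17.1, checked on simulated intervals. Figures were drawn with matplotlib 3.10.9. Intervals of shares are exact Clopper-Pearson at 95%, those of medians come from order statistics and those of differences in shares from Newcombe's method. No test was made, since each condition had 1 list. Distances are between nearest edges. Positions are 1-based, on mm9. The annotation used here has another build, so no gene, exon or sequence was assigned to a region, and cell identity was not checked on marker genes.

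The members, the comparisons and the rule for named regions were chosen with earlier results of these data known. Named regions are the 5 of highest fold per Oct4 class (for both media, of lowest mean rank), the 3 strongest without Nanog and with H3K4me3 in all lists, and the 3 nearest to either side of the Sox2 criterion. Alternatives were a minimum −log10 q of 10, an overlap of 50% of the shorter interval, Oct4 or Sox2 lists of equal length, joining up to 1000 bp, and subsets of lists or chromosomes.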

Additional observations from a re-analysis of the deposited data

How the results depend on the processing

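Over 14 alternatives, 10 of them planned and 4 added after the data were seen, 81 values were recomputed. Of these, 39 stayed, 40 moved and 2 reversed. A value stayed if it lay within the interval of the reported value. The number of regions has no interval, and was counted as moved if it changed by more than a set ratio. Regions without Sox2 had less Nanog, a lower Oct4 fold at 24 h and fewer calls in both media than regions with Sox2 under every alternative run on these values. The cause of the moves was not tested. The 1637 regions became 2525 with a minimum −log10 q of 10, 864 with Oct4 lists of equal length, 2570 with Sox2 lists of equal length, 2769 with Sox2 of serum and 3 passages alone and 3005 with Sox2 peaks at a −log10 q of at least 17.3, the last 2 added later. In that order, leaving out equal Sox2 lists where a value stayed, the share called only at 24 h was 65.9%, 28.9%, 65.9% and 66.7%. The median Oct4 fold at 24 h was 17.1, 21.5, 17.6 and 17.6. Any Nanog was called in 77.7%, 67.5%, 78.0% (equal Sox2 lists), 79.2% and 80.3%, and in the lowest of 4 bins of Oct4 fold at 24 h in 82.1%, 82.2%, 82.7%, 82.7% and 83.7%. Any H3K4me3 was called in 11.2%, 16.9%, 10.7% and 10.8%, against 14.0%, 14.4%, 14.9% and 15.05% of regions with Sox2. With Nanog of lot 1 alone any Nanog was 65.6%, and 71.0% in the lowest bin. With Nanog lists of equal length these were 58.5% and 61.4%, and any Nanog of KH2 lists was 69.0%. Any H3K4me3 was 15.4% when peaks up to 1000 bp apart were joined, and 11.3% for the serum list alone. H3K4me3 in all 3 lists reversed against regions with Sox2, at 6.86% with Sox2 of serum and 3 passages alone and 6.79% with Sox2 at 17.3, while it was 6.94% and 6.99% with Sox2.

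Read depth is unknown, so no limit was set on Sox2 below the threshold of a list. No paired analysis was possible because no list holds a value per replicate, and for the same reason no replicate was left out. For 6 of the lists, both Oct4 lists among them, the labels hold 1 sample.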
